A study of Mus musculus with 15 samples.

Results

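Livers of mice that received SR9009 on a steatohepatitis diet were compared with livers of mice kept on standard chow, to describe which genes were still away from the chow level at the end of treatment, which stood at it and which had passed it. SR9009 is a small molecule that activates the nuclear receptors REV-ERBα and REV-ERBβ, the products of Nr1d1 and Nr1d2. The comparison used the 5 libraries labelled SR9009 and the 4 labelled Chow, 9 of the 14 libraries in the count table, and the 5 Vehicle libraries of the same diet served to tell what the compound had moved. All mice were C57BL/6J males, 8 weeks old at the start, and the experiment ran for 18 weeks. The SR9009 and Vehicle groups were fed throughout on CDA-HFD, a high-fat diet that lacks choline and gives protein as amino acids. For the last 6 of those weeks, after 12 weeks of diet, they were injected into the peritoneum every day, with SR9009 at 100 mg/kg/day or with 15% Kolliphor in saline (Vehicle). The Chow group had the standard diet for the same time. The labels do not say that Chow mice were injected, so diet, injection and solvent cannot be told apart in any comparison with Chow, and they give no hour of death. Each library is bulk RNA from a piece of 1 mouse's liver, so a p-value here measures the spread between mice, and fewer cells of a type cannot be told apart from less RNA per cell. The study describes 15 samples, and Chow replicate 5 was not analysed here.

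The REV-ERBs are repressors of the circadian clock: they bind response elements shared with the ROR activators and hold down Arntl (Bmal1), Npas2, Clock, Cry1 and Nfil3, whose products in turn act on the promoters of Per, Dbp, Tef and the REV-ERB genes themselves. A diet without choline limits the export of fat as very low density lipoprotein, and mice fed it develop fat-laden hepatocytes, inflammation, ductular reaction and fibrosis. The liver answers many foreign compounds through the nuclear receptors CAR and PXR, whose classical targets are cytochromes P450 of the 2b, 2c and 3a subfamilies, glutathione transferases and transporters.

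The 9 libraries held 29950509 to 42401630 counts each, and 18181 of the 57132 gene identifiers in the table were tested. Expression is given per library as CPM, read counts scaled to the library size after TMM normalization, where 3 counts, the limit that a count of 0 allows, are 0.0607 to 0.124 CPM, in the order of the replicate numbers, and differences as log2 fold changes ± standard error from 1 edgeR quasi-likelihood fit over Chow, Vehicle and SR9009 libraries, called at a Benjamini-Hochberg adjusted p under 0.05. The hepatocyte markers Alb, Apoa1, Ttr, Cps1 and Hnf4a summed to 54448 to 70439 CPM in SR9009 and 91098 to 127850 CPM in Chow livers. Normalization placed the median gene at a log2 difference of 0.023. Scaling by total counts alone would add 0.45 to every log2 difference from Chow, so levels here are relative to the median gene. Libraries also differed in how many of 1985 chemosensory receptor genes (olfactory, vomeronasal or trace amine) had a count: 50 to 113 in Chow, 69 and 75 in SR9009 replicates 1 and 3, and 158 to 179 in SR9009 replicates 2, 4 and 5. Some results that moved with this split are given with it, and others only as counts of genes. Its part in them was not tested.

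Most of what the diet had changed in Vehicle livers was still changed in SR9009 livers. Of the genes tested, 10213 (56.2%) were called between SR9009 and Chow, 5548 of them higher (30.5%) and 4665 lower (25.7%), and 5034 differed at least 2-fold (3855 higher, 1179 lower). The libraries of the 2 groups did not overlap for 4637 genes that were higher (25.5%) and 3822 that were lower (21.0%) under SR9009. Vehicle against the same Chow libraries gave 10035 calls (55.2%), of which 5414 were higher (29.8%) and 4621 lower (25.4%). SR9009 against Vehicle gave 44 calls (0.242%), of which 30 were higher (0.165%) and 14 lower (0.0770%), with 1323 genes at an unadjusted p under 0.05. With 1 library left out at a time these 44 calls numbered 18 to 56, and they numbered 27 or fewer without Vehicle replicate 1, 3 or 4 or SR9009 replicate 1, 3, 4 or 5. With total counts as the only scaling, 9964 genes were called higher and 1577 lower against Chow, so that the share of higher calls went from 54.3% to 86.3%.

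The 3 comparisons place each gene in a class. Both diet groups were called in the same direction from Chow for 8995 genes (4975 higher, 4020 lower), of which 8981 were not called between SR9009 and Vehicle. Another 5 remained different from Chow but had moved part of the way back under SR9009, and 9 had moved further away. SR9009 returned 9 genes to a level not called different from Chow, and took 7 past the Chow level in the direction opposite to the diet. A further 14 genes were called against both Chow and Vehicle without being called in Vehicle livers. Of the 44 genes that differed from Vehicle, 19 were in the 2 lists of drug metabolism and 5 in the list of clock genes. Those lists held 36, 34 and 27 of the 18181 genes tested, and 0.242% of all genes differed from Vehicle. The lists were chosen with earlier results of these data known. With 1 library left out at a time, returned genes numbered 2 (without SR9009 replicate 1) to 9, those past the Chow level 4 (without Chow replicate 4) to 9, those called only with SR9009 5 (without SR9009 replicate 4) to 15, those partly back 2 (without Vehicle replicate 4) to 6, and those further away 3 (without Chow replicate 2) to 18 (without Vehicle replicate 2). Of the 44 genes, 15 stayed in their class in all 14 of those fits. Beside Chow, the fit on libraries with few receptor genes alone held SR9009 replicates 1 and 3 and Vehicle replicates 4 and 5. There 2 of the 7 genes past the Chow level (Cyp2c29 and Cyp2c55), 1 of the 9 returned (Cyp2c37) and 1 of the 5 partly back (Ces2a) kept their class. None of the 9 further away and none of the 14 called only with SR9009 kept it.

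**Figure D1:**
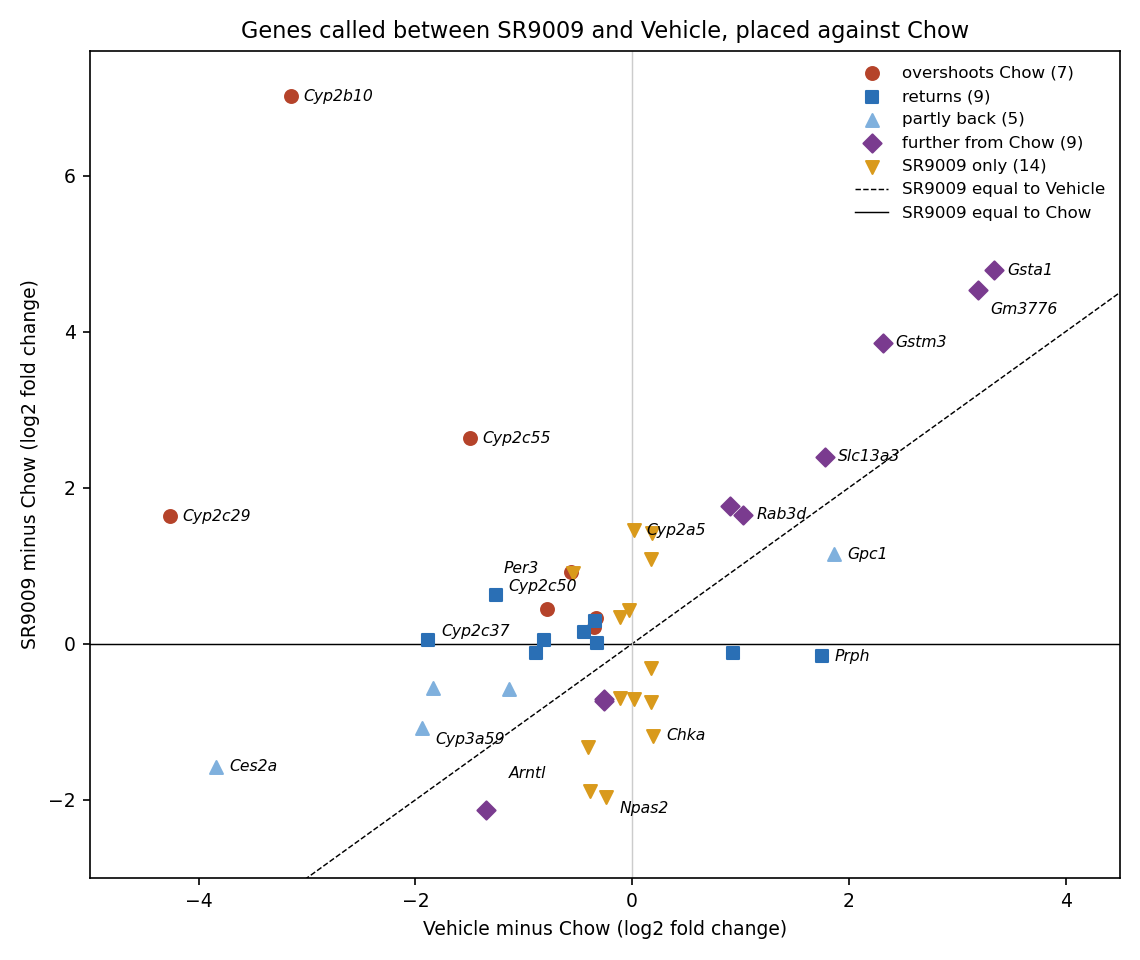
Log2 fold change from Chow in Vehicle livers (horizontal axis) and in SR9009 livers (vertical axis) for the 44 genes called between SR9009 and Vehicle, coloured by class, from 1 edgeR fit in which both axes share the 4 Chow libraries. Cyp2b10, Cyp2c29 and Cyp2c55 lie below 0 on the horizontal and above 0 on the vertical axis, and Gstm3, Gsta1 and Gm3776 lie above 0 on both.

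Cytochromes P450 of the 2b, 2c and 3a subfamilies made up most of the genes that SR9009 took past the Chow level. Cyp2b10, the classical CAR target, stood at 3.51, 5.35, 0.761 and 3.79 CPM in Chow, 0, 1.2, 0.103, 0.223 and 0.406 CPM in Vehicle and 304, 487, 456, 544 and 396 CPM in SR9009 livers. Every SR9009 library thus lay above every Chow library, and every Chow library but replicate 3 above every Vehicle library. The log2 difference from Chow was 7.02 ± 0.65 (adjusted p = 1.3e-06), with Vehicle at -3.15 against the same Chow livers. Cyp2c29, a P450 of arachidonic acid and drug oxidation, stood at 1977, 1571, 1206 and 1502 CPM in Chow and 3990.0, 4925, 5152, 5454 and 4776 CPM in SR9009 livers, with Vehicle livers at 59.8 to 116 CPM. The SR9009 level was 3.11-fold that of Chow (log2 1.64 ± 0.19, adjusted p = 3.54e-06), while the Vehicle level was 19.3-fold lower. Cyp2c55 rose to 63.9, 81.1, 81.95, 91.7 and 66.5 CPM from 15.9, 10.7, 11.1 and 12.00 CPM in Chow, a difference of 2.64 ± 0.19 (adjusted p = 3.54e-08), and no SR9009 library overlapped a Chow library for either gene.

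Cyp3a11, the main PXR-inducible P450 of mouse liver, passed the Chow level by less: 4595, 5037, 6287, 5533 and 5063 CPM against 4386, 4172, 3132 and 3884 CPM in Chow and 1939 to 2833 CPM in Vehicle. Its log2 difference from Chow was 0.45 ± 0.14 (adjusted p = 0.0106), and every SR9009 library was above every Chow library. Por, the reductase that passes electrons to all microsomal P450s, was at 228, 253, 265, 258 and 254 CPM under SR9009 and 178, 182, 190.0 and 249 CPM in Chow, and Ephx1, microsomal epoxide hydrolase, at 571, 605, 616, 639 and 674 and 581, 574, 500.2 and 493 CPM. For both genes the ranges overlapped Chow, and the differences were 0.33 ± 0.12 (adjusted p = 0.0216) and 0.21 ± 0.086 (adjusted p = 0.0498). The call of Por against Chow was lost without Chow replicate 1, 2 or 3, at adjusted p = 0.0671, 0.0645 and 0.0548, and Ephx1 kept its class in 4 of 14 fits that left out a library, with an adjusted p against Chow of up to 0.132. Cyp2b10, Cyp2c29, Cyp2c55 and Cyp3a11 stayed past the Chow level in all 14. They also stayed past it under total counts, where Por and Ephx1 were not called in Vehicle and so were called only with SR9009. In the libraries with few receptor genes alone, the differences from Chow were 6.81 for Cyp2b10, 1.55 for Cyp2c29, 2.56 for Cyp2c55 and 0.48 for Cyp3a11, all called, but Cyp2b10 and Cyp3a11 left the class there because they were not called against Vehicle (adjusted p = 0.112 and 0.0799).

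**Figure D2:**
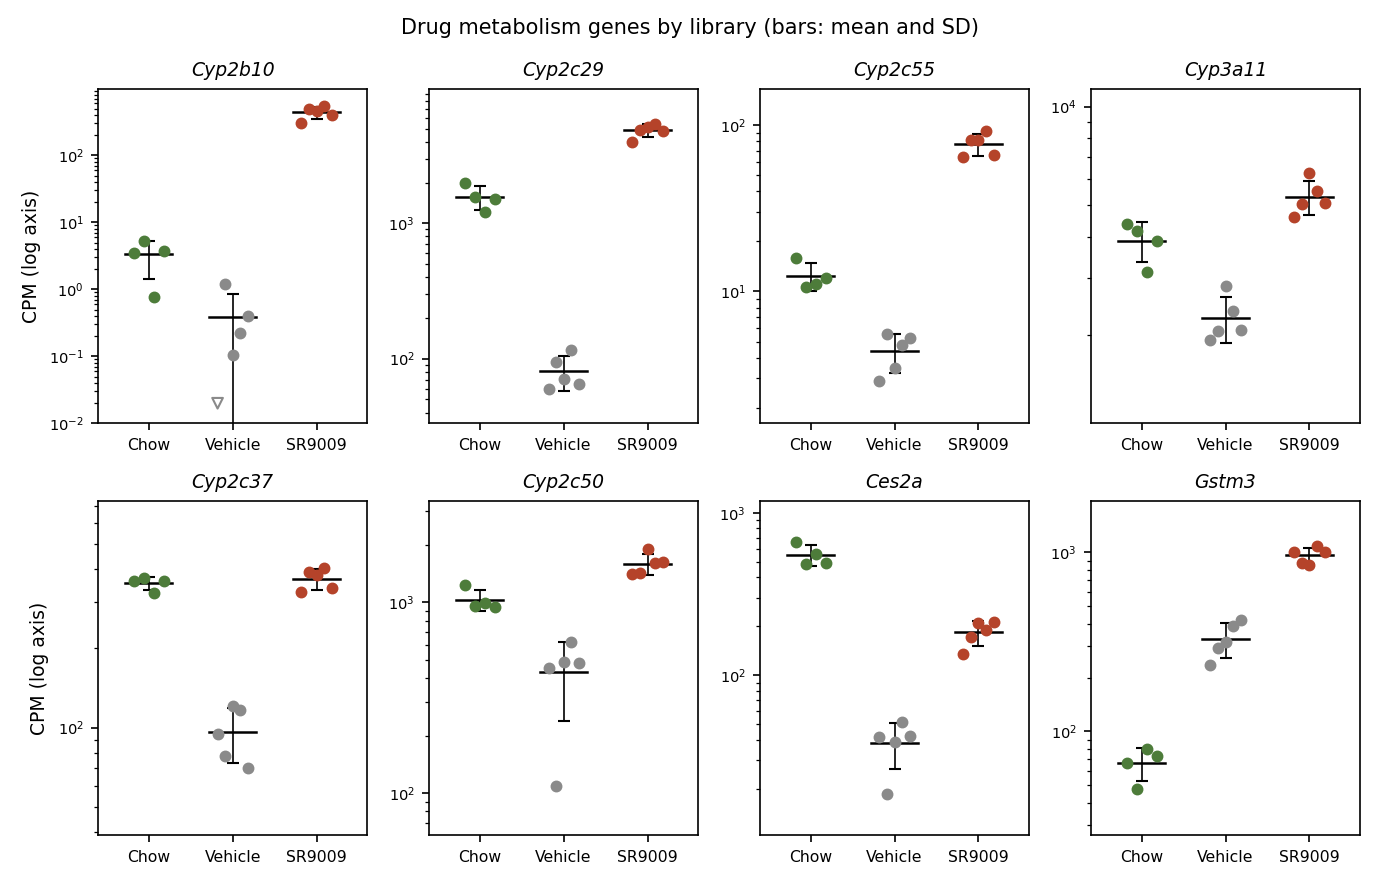
CPM on a log axis of 8 drug metabolism genes in Chow, Vehicle and SR9009 livers, with 1 point per library and bars for the mean and SD. Cyp2b10, Cyp2c29, Cyp2c55 and Cyp3a11 are higher in every SR9009 library than in any Chow library, Cyp2c37 overlaps Chow, Ces2a lies between Vehicle and Chow, and Gstm3 is above both; the open triangle marks the Vehicle library with 0 CPM of Cyp2b10, where the lower SD bar runs off the axis.

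Of the genes that SR9009 brought back to a level not called different from Chow, 3 were in the drug metabolism lists, and Cyp2c37 was the one that the diet had lowered most. It was at 362, 369.6, 326 and 362 CPM in Chow and 327, 389.5, 381, 406 and 339 CPM in SR9009 livers, against 70.03 to 121 CPM in Vehicle. The SR9009 and Chow ranges overlapped, and the difference of 0.054 ± 0.14 had a 95% interval of -0.24 to 0.35, while Vehicle differed from Chow by -1.88. Of all genes at least 2-fold changed in Vehicle, Cyp2c37 alone had an interval from Chow under SR9009 within 1.5-fold either way. Cyp2c50 also returned by the test, but all 5 SR9009 libraries, at 1415, 1425, 1893, 1598 and 1631 CPM, were above the 4 Chow libraries, at 1227, 953, 991 and 947 CPM. Its difference of 0.63 ± 0.33 (adjusted p = 0.121) was called higher than Chow without Vehicle replicate 2 (adjusted p = 0.000397), the library lowest for the gene. Cyp2c54, a close relative, was at 283, 288, 489.8, 356 and 359.7 CPM under SR9009 and 435, 300.5, 292 and 309 CPM in Chow, with Vehicle at 5.13 to 100.5 CPM. SR9009 and Vehicle libraries of Cyp2c54 did not overlap, but the difference of 2.57 ± 0.53 between them did not pass the test (adjusted p = 0.102).

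The other 7 returned genes came from several functions, and 5 of them had been lowered and 2 raised in Vehicle. Cyb5a, cytochrome b5, which donates electrons to P450s and desaturases, differed from Chow by 0.15 ± 0.12 (95% interval -0.097 to 0.40), and the glutathione transferase Gstm4 by 0.29 ± 0.12 (0.034 to 0.55, adjusted p = 0.0509). Fitted with DESeq2, or in edgeR with the size factors of DESeq2, Gstm4 was past the Chow level. Plod1, the collagen lysyl hydroxylase, was at 78.4, 74.99, 68.1, 74.6 and 74.98 CPM in SR9009 and 75.96, 77.4, 72.4 and 70.2 CPM in Chow livers (0.0043 ± 0.06), and at 56.6 to 61.5 CPM in Vehicle. The gene 4931406C07Rik differed by -0.12 ± 0.11 and Tef, a PAR bZIP output factor of the clock, by 0.048 ± 0.17. Genes that had risen in Vehicle and fell back were the ubiquitin ligase Rnf144a, at 5.98, 7.25, 4.45, 5.95 and 4.9 CPM under SR9009, 7.61, 5.3, 4.73 and 7.26 CPM in Chow and 8.58 to 14.8 CPM in Vehicle, and Prph, an intermediate filament of neurons, at 0.17, 0.374, 0.26, 0.192 and 0.45, 0.21, 0.458, 0.43 and 0.165 and 0.798 to 1.72 CPM. For Prph the interval from Chow ran from -1.06 to 0.73, too wide to place it at the Chow level. Cyp2c37 and 4931406C07Rik stayed in the class in all 14 fits that left out a library, Plod1 and Rnf144a in 8, Cyp2c50 in 6, Cyb5a in 5, Tef in 4, Prph in 3 and Gstm4 in 1. The highest adjusted p against Vehicle among those fits were 0.0716 without SR9009 replicate 5 for Plod1, 0.0913 without SR9009 replicate 5 for Rnf144a, 0.121 without SR9009 replicate 5 for Cyb5a, 0.114 without SR9009 replicate 3 for Tef and 0.138 without SR9009 replicate 4 for Prph. Of the 9 returned genes, 7 had a 95% interval from Chow within 1.5-fold either way, among them Gstm4, whose interval lay above 0. Scaled by total counts, only Rnf144a and Prph of the 9 kept the class. There 4931406C07Rik, Cyp2c37 and Cyp2c50 were past the Chow level (0.33, 0.51 and 1.08), and Cyb5a, Gstm4, Plod1 and Tef were called higher than Chow (0.60, 0.74, 0.46 and 0.49).

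The genes brought part of the way back were enzymes and 1 proteoglycan. Ces2a, a carboxylesterase that cleaves ester drugs, was at 658, 486, 560.3 and 490.1 CPM in Chow, 18.6 to 51.4 CPM in Vehicle and 134, 173, 210.3, 190.0 and 212 CPM in SR9009 livers. The 3 groups did not overlap, and SR9009 remained 2.98-fold below Chow (log2 -1.58 ± 0.22, adjusted p = 2.29e-05). Cyp3a59 was -1.08 ± 0.15 from Chow against -1.94 in Vehicle, the glutathione transferase Gstt3 -0.57 ± 0.15 against -1.84, and the aldo-keto reductase Akr1c19 -0.58 ± 0.10 against -1.14. Gpc1, glypican 1, a heparan sulfate proteoglycan, was the member of the class that the diet had raised, at 21.4, 29.7, 25.6, 30.9 and 31.3 CPM under SR9009, 11.5, 14.3, 9.43 and 15.01 CPM in Chow and 35.8 to 50.5 CPM in Vehicle. SR9009 livers lay between the other groups for all 5 genes, with 1 Gstt3 library (28.4, 28.1, 33.2, 28.7 and 39.3 CPM) inside the Chow range (63.3, 46.1, 37.2 and 41.02 CPM). Gstt3 and Akr1c19 were not called against Chow under total counts (-0.12 and -0.13). Ces2a and Gstt3 stayed partly back in all 14 fits that left out a library, Cyp3a59 in 12, Akr1c19 in 6 and Gpc1 in 5, with adjusted p against Vehicle of up to 0.0598 without Vehicle replicate 4 for Cyp3a59, 0.0913 without SR9009 replicate 5 for Akr1c19 and 0.114 without SR9009 replicate 3 for Gpc1.

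Glutathione transferases led the genes that the diet had moved and SR9009 moved further. Gstm3 was at 66.3, 47.3, 79.5 and 72.8 CPM in Chow, 235 to 417 CPM in Vehicle and 1001, 874, 848, 1081 and 1010.0 CPM in SR9009 livers, 14.5-fold the Chow level (log2 3.86 ± 0.19, adjusted p = 8.62e-10). Gsta1 went from 1.51, 1.55, 0.629 and 1.36 CPM in Chow to 31.5, 26.8, 30.9, 37.9 and 47.4 CPM, a log2 difference of 4.79 ± 0.35 against 3.34 in Vehicle. Gm3776, whose sequence is close to Gsta1 and whose counts may share reads with it, was 4.53 ± 0.32 from Chow, and Gstm2 1.76 ± 0.13. Slc13a3, the sodium-coupled dicarboxylate transporter, rose to 136, 132, 121, 138 and 138 CPM from 20.6, 25.8, 26.2 and 28.2 CPM in Chow, and Rab3d, a small GTPase of secretory vesicles, to 35.4, 48.6, 45.1, 42.4 and 35.2 from 12.8, 13.1, 12.6 and 14.1 CPM. Both rises were larger than in Vehicle (1.78 and 1.02). Lower than Chow, and lower than Vehicle, were Ranbp10 (-0.73 ± 0.086), the hydroxylysine kinase Hykk (-0.71 ± 0.092) and ENSMUSG00000118550.2 (-2.12 ± 0.16), a gene without a symbol in the names table. Under total counts Hykk was called higher in Vehicle and SR9009 took it past the Chow level, and Ranbp10 was not called in Vehicle. SR9009 libraries did not overlap Chow libraries for any of the 9. Gstm3, Gstm2 and Rab3d kept this class in all 14 fits that left out a library, Gm3776 in 8, Gsta1 and Ranbp10 in 6, Slc13a3 in 4, Hykk in 2 and ENSMUSG00000118550.2 in 1, but none of the 9 lost its call against Chow in any of them.

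Over the list of 36 tested enzymes and regulators of drug oxidation, 12 were higher and 12 lower than Chow under SR9009. These are 33.3% each, beside 30.5% higher and 25.7% lower of all genes. The median was 0.06 (17, 9 and 0.52 under total counts), where Vehicle had 4 higher and 26 lower with a median of -0.80. SR9009 raised 12 of the 36 against Vehicle and lowered none. The 16 members called in the same direction in both diet groups included Ces1f, a carboxylesterase, at 151, 86.7, 135, 95.5 and 158 CPM against 729, 713, 584 and 650.4 CPM in Chow (-2.42 ± 0.19), and Cyp3a25 at 405, 405, 472, 364 and 377 against 1119, 1009, 816 and 960.3 CPM (-1.27 ± 0.13). Not every P450 of the induced subfamilies therefore passed or reached the Chow level. Aldh1a1, the retinal and acetaldehyde dehydrogenase, was called lower in Vehicle (-0.47) and was at 2421, 1710.0, 2360.0, 1986 and 2360.0 CPM under SR9009 and 2133, 2220.0, 1595 and 1851 CPM in Chow (0.15 ± 0.18, interval -0.23 to 0.53), but it was not called against Vehicle. Of 34 tested conjugating enzymes and exporters, 10 were higher (29.4%) and 13 lower (38.2%) than Chow, with a median of -0.35. Under total counts 14 were higher and 8 lower (median 0.098), and Vehicle had 7 higher and 19 lower (median -0.66). Sult1e1, the estrogen sulfotransferase, was at 0.175, 0.0286, 1.62 and 0.289 CPM in Chow and 26.1, 16.5, 26.5, 33.2 and 21.3 CPM in SR9009 livers (5.54 ± 0.65, adjusted p = 8.01e-06; 7.34 without Chow replicate 3). Abcc4, an exporter of the basolateral membrane, was at 3.72, 3.04, 1.79 and 4.45 and 39.5, 35.1, 24.2, 32.8 and 22.96 CPM (3.26 ± 0.31, adjusted p = 8.23e-07). Vehicle libraries of Sult1e1 (3.54 to 9.72 CPM) lay below every SR9009 library, but neither gene passed the test against Vehicle (adjusted p = 0.178 and 0.122). Mouse P450, carboxylesterase and glutathione transferase families hold near-identical copies, and the sources used here do not give how reads shared between copies were counted, so single members are less certain than the subfamilies.

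REV-ERB response elements, E-boxes and D-boxes were looked for in promoter windows of the clock genes that SR9009 moved, because these are the sites through which the receptors and the clock act. Windows run from 250 bases before to 50 after a start site in RefSeq on GRCm38.p6, a different build from the GRCm39 of the counts, and both strands were searched. The Arntl piece upstream of 1 start, with 2 matches to TNGGTCA in capitals, lies on the plus strand at chr7:113207250-113207309, and the piece downstream of a second start, with TAGGTCA in capitals, at chr7:113207529-113207556. The Per3 piece, on the minus strand at chr4:151044801-151044885, has 2 matches to the D-box TTATGTAA. The 2 Tef pieces, on the plus strand at chr15:81802526-81802571 and chr15:81811256-81811301, each hold the E-box CACGTG.
Arntl, first start: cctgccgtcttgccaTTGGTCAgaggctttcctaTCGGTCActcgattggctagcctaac
Arntl, second start: gaaggcagaaagTAGGTCAgggacggag
Per3: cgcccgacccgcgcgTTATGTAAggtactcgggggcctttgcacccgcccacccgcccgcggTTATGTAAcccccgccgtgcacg
Tef, first start: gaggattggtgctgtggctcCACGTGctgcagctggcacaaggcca
Tef, second start: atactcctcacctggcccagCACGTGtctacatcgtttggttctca
Of 32851 promoter windows of this length, 11% held the looser pattern TNGGTCA, in which N is any base, among them the 2.61% with TAGGTCA. The matches in the first Arntl piece have T or C at that base, and its window holds no TAGGTCA. The E-box was in 7.15% and the D-box in 0.938%. The Per3 window and the second Tef window also held 1 match each to TNGGTCA, on the strand opposite to the gene and outside the pieces shown, and the windows of Npas2 and Usp2 held none of these letters. A match is a string of letters and not a measured site.

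Clock genes departed from Chow in SR9009 livers in both directions. Only 5 genes of the clock list, Arntl, Npas2, Per3, Usp2 and Tef, were also called between SR9009 and Vehicle. Arntl, the REV-ERB target with the matches shown, was at 40.7, 30.8, 28.5 and 20.6 CPM in Chow and 5.49, 14.1, 5.85, 10.7 and 4.67 CPM in SR9009 livers, and every SR9009 library was below every Chow and every Vehicle library (19.4 to 27.9 CPM). It was 3.7-fold lower than Chow (log2 -1.89 ± 0.29, adjusted p = 8.74e-05) and was not called in Vehicle (-0.39, adjusted p = 0.274). Npas2, a partner of Arntl, fell likewise, to 1.02, 3.36, 1.25, 2.92 and 1.82 CPM from 11.5, 9.45, 6.12 and 5.32 CPM (-1.96 ± 0.33, adjusted p = 0.000106). Clock and Cry1, both lower in Vehicle too, were at 40.5, 39.98, 41.2, 39.6 and 39.3 and 5.32, 6.53, 4.99, 6.27 and 5.83 CPM under SR9009 against 73.9, 70.5, 68.1 and 65.8 and 24.3, 25.9, 14.4 and 12.8 CPM in Chow. Neither overlapped Chow, with differences of -0.79 ± 0.079 and -1.74 ± 0.20. Nfil3, the repressor that opposes the PAR bZIP factors, was at 7.72, 17.6, 13.4, 14.2 and 12.2 CPM against 66.9, 55.4, 37.9 and 19.9 CPM in Chow (-1.79 ± 0.29), and Rora, an activator at the same elements, was -0.69 ± 0.098. The fit on libraries with few receptor genes, which holds SR9009 replicates 1 and 3, gave larger falls of Arntl and Npas2 (-2.41 and -2.84). The lowest SR9009 library for Arntl was replicate 5 (4.67 CPM), which has many receptor genes. Against Vehicle, Arntl kept its class in 3 and Npas2 in 7 of 14 fits that left out a library, with adjusted p up to 0.129 without SR9009 replicate 3 and 0.119 without SR9009 replicate 5, but both remained called against Chow in every one.

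Per3, Usp2, Dbp, Per1, Wee1 and Ciart stood above Chow. Dbp, Per1, Wee1 and Ciart were not called between SR9009 and Vehicle. Per3 was at 31.4, 18.7, 26.1, 22.4 and 23.1 CPM under SR9009 and 6.6, 15.2, 15.4 and 14.3 CPM in Chow, with Vehicle at 6.87 to 9.91 CPM. Every SR9009 library was above every Chow library, and the difference was 0.92 ± 0.22 (adjusted p = 0.00194), while Vehicle was called lower than Chow (-0.57). Per3 left the class of genes past the Chow level without Chow replicates 2, 3 and 4 and Vehicle replicates 3 and 4. Under total counts Per3 was not called in Vehicle and so was called only with SR9009. Usp2, a deubiquitinase with a strong daily rhythm, rose to 13.6, 7.45, 9.2, 9.35 and 10.2 CPM from 3.37, 4.47, 2.71 and 4.41 CPM (1.42 ± 0.20, adjusted p = 1.81e-05) and stayed called only with SR9009 in all 14 fits. Under total counts Usp2 was called higher in Vehicle too, and SR9009 moved it further from Chow. Dbp, a PAR bZIP factor with a strong daily swing in liver, was at 50.2, 36.6, 72.7, 57.2 and 55.3 CPM against 10.2, 25.6, 24.1 and 29.4 CPM in Chow (1.29 ± 0.34, adjusted p = 0.00552). No SR9009 library of Dbp overlapped a Vehicle library (8.16 to 23.5 CPM), where the test gave an adjusted p of 0.0537. Per1 was 1.29 ± 0.36 (adjusted p = 0.00799), Wee1, a kinase that holds mitotic entry, 1.65 ± 0.17, and Ciart 1.11 ± 0.41 (adjusted p = 0.0296). Ciart lost its call without Chow replicate 1 or 3 or SR9009 replicate 1 or 3 (adjusted p 0.0892, 0.0829, 0.0877 and 0.0583).

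Tef, Per2 and Nr1d2 were not called different from Chow. Tef was at 124, 87.6, 135, 106 and 104 CPM under SR9009 and 75.6, 128, 109 and 119 CPM in Chow, and was called lower in Vehicle (44.4 to 73.7 CPM). Per2, also called lower in Vehicle (-1.27), was -0.20 ± 0.33 from Chow with an interval of -0.91 to 0.51, too wide to place it at the Chow level, and its difference from Vehicle did not pass the test (adjusted p = 0.319). Of the genes of the receptors themselves, Nr1d1 was at 77.5, 83.2, 113, 116 and 97.4 CPM against 138, 129, 166 and 109.7 CPM in Chow (-0.47 ± 0.16, adjusted p = 0.017), and Nr1d2 at 100.1, 83.6, 114, 100.5 and 78.01 against 72.3, 86.2, 100.4 and 104 CPM (0.071 ± 0.14, adjusted p = 0.692). The call of Nr1d1 was lost without Chow replicate 3 (adjusted p = 0.076) and under total counts (-0.026), where Nr1d2 was called higher (0.52). Hlf (-0.67 ± 0.14) and Cry2 (-0.50 ± 0.12) remained lower than Chow, but like Rora were not called under total counts. Of the 27 clock and REV-ERB target genes tested, 10 were higher and 10 lower than Chow (37% each, beside 30.5% and 25.7% of all genes). The median was -0.16 and turned to 0.29 under total counts, where 13 were higher and 5 lower. Vehicle had 4 higher and 12 lower (median -0.41). Time of death is not given, and its part in these differences was not tested.

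**Figure D3:**
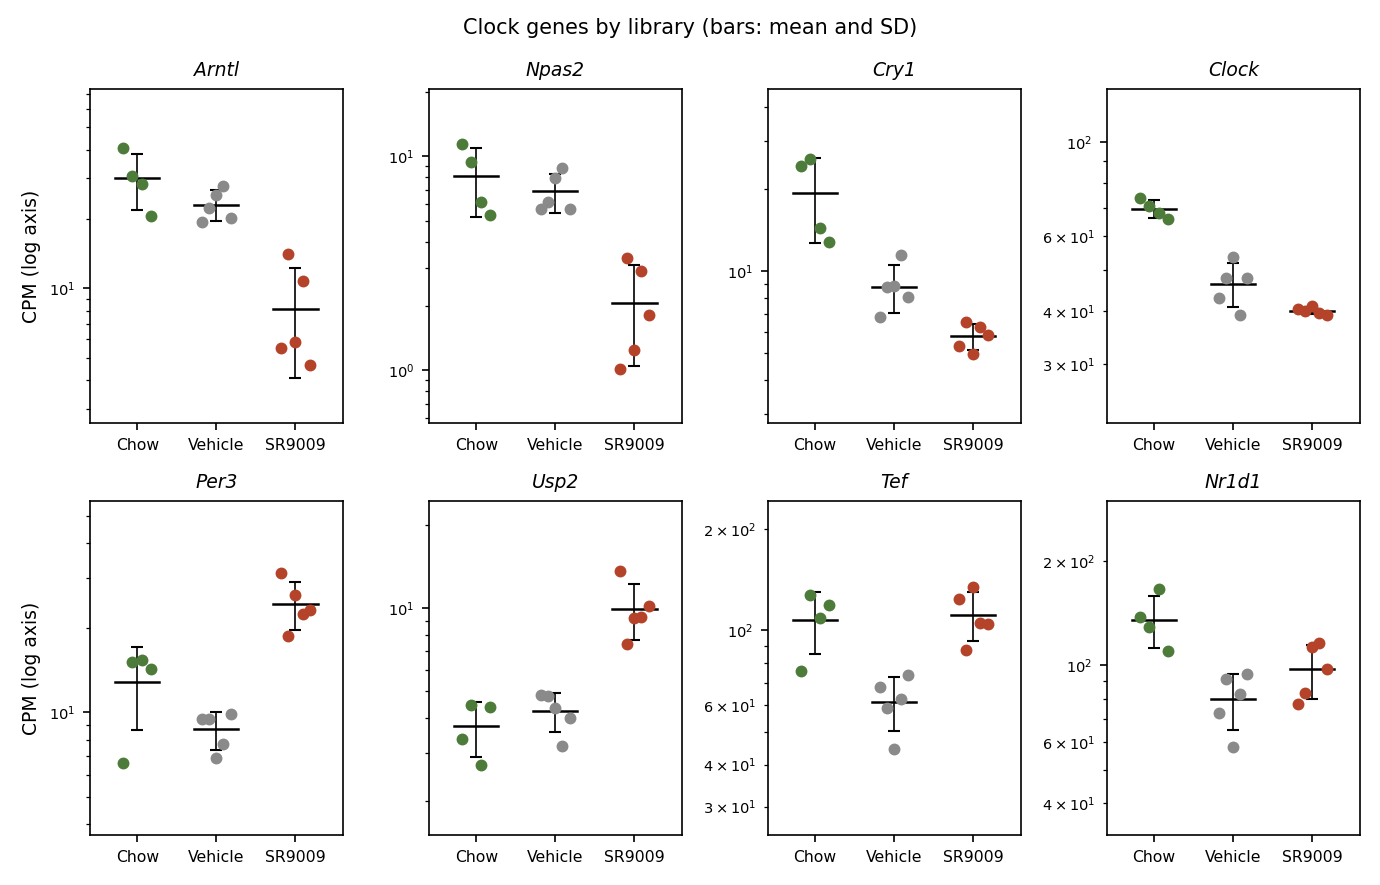
CPM on a log axis of 8 clock genes in Chow, Vehicle and SR9009 livers, with 1 point per library and bars for the mean and SD. Arntl, Npas2, Cry1 and Clock lie below Chow in every SR9009 library, Per3 and Usp2 lie above it, and Tef and Nr1d1 overlap it; on total counts the call of Nr1d1 is lost.

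Outside drug metabolism and the clock, SR9009 moved 7 genes that were not called in Vehicle. Chka, choline kinase α, the first step from choline to phosphatidylcholine, was at 193, 146, 131 and 89.9 CPM in Chow and 47.5, 76.9, 53.9, 76.8 and 53.6 CPM in SR9009 livers, with Vehicle at 124 to 203 CPM. No SR9009 library overlapped the other groups, and Chka was 2.27-fold lower than Chow (log2 -1.18 ± 0.22, adjusted p = 0.000278). It stayed in this class in all 14 fits that left out a library, but in 4 of the 8 other settings. Under total counts Chka was called higher than Chow in Vehicle, and SR9009 took it past the Chow level. Also lower than Chow were Slc25a22, the mitochondrial glutamate carrier (-0.69 ± 0.12), Pnrc1, a nuclear receptor coactivator (-0.71 ± 0.15), the ARF-like GTPase Arl4a (-0.75 ± 0.18), the matrix protein hemicentin 2 (Hmcn2, -1.32 ± 0.18) and the lysosomal arylsulfatase Arsg (-0.31 ± 0.078). Under total counts Slc25a22, Pnrc1 and Arl4a were not called between SR9009 and Chow, and Arsg turned to 0.14. With that scaling Vehicle was called against Chow for each of these genes, and Arl4a and Arsg were in the returned class. Dhrs7, a short-chain dehydrogenase, was higher (0.34 ± 0.095). The drug metabolism members of this class were Cyp2a5, the coumarin hydroxylase, at 1350.0, 799.7, 1241, 1041 and 960.0 CPM against 348, 458, 304 and 463 CPM in Chow (1.46 ± 0.22); Gstm1, at 3030.0, 2787, 2843, 3330.0 and 3397 against 1652, 1364, 1412 and 1345 CPM (1.09 ± 0.14); Cyp1a2, a target of the Ah receptor (0.91 ± 0.28); and Gsta4 (0.43 ± 0.095). Arsg kept the class in 13 of 14 fits that left out a library, Arl4a and Slc25a22 in 4, Hmcn2 and Pnrc1 in 3, Gsta4 and Dhrs7 in 2 and Cyp1a2 in 1, where the adjusted p against Vehicle reached 0.114 without SR9009 replicate 3. Under total counts Gstm1 was called higher in Vehicle too, and SR9009 moved it further from Chow. Gsta4 and Dhrs7 were also called in Vehicle there, but not between SR9009 and Vehicle.

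Failing to differ from Chow was not by itself a return. A set of 1024 genes was called in Vehicle against Chow (437 higher, 587 lower) but not in SR9009 against either group, and their median size was 0.44 in Vehicle and 0.24 in SR9009 on the log2 scale. The 95% interval of SR9009 from Chow was within 1.5-fold for 546 of them. Among genes at least 2-fold changed in Vehicle, 3578 of 3760 that were higher and 1016 of 1093 that were lower were called in the same direction in SR9009. A further 1197 genes were called in SR9009 against Chow alone (560 higher, 637 lower).

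Scar matrix remained raised. Col1a1, the chain that makes up most of type I collagen, was at 13.7, 10.8, 6.59 and 5.73 CPM in Chow, 149 to 199.5 CPM in Vehicle and 142, 266, 103, 211 and 199 CPM in SR9009 livers. Col3a1 was at 39.5, 33.9, 24.03 and 20.7 CPM in Chow and 326, 526, 206, 374 and 452 CPM in SR9009 livers. No SR9009 library overlapped Chow for either, with differences of 4.32 ± 0.32 and 3.67 ± 0.28 beside 4.23 and 3.48 in Vehicle against the same Chow livers. In the libraries with few receptor genes, SR9009 replicates 1 and 3, which had the lowest levels of both collagens, the difference of Col1a1 was 3.73. Of the 30 fibrillar collagen and matrix genes tested, 28 were higher and 2 lower than Chow (median 2.66; Vehicle 28 and 2, median 2.46). The higher ones included Thbs1, an activator of latent TGF-β (5.23 ± 0.23), Tnc, tenascin C (3.03 ± 0.19), and Dcn, decorin (1.63 ± 0.11). The 2 lower ones were Fn1, plasma fibronectin made by hepatocytes (-0.67 ± 0.12, not called under total counts), and Col5a3 (-1.34 ± 0.14).

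Genes of matrix turnover were also still raised, inhibitors together with proteases. Timp1, the inhibitor of matrix metalloproteinases, was at 0.14, 0.172, 0.0662 and 0.124 CPM in Chow and 4.83, 8.52, 4.94, 7.75 and 10.4 CPM in SR9009 livers (5.81 ± 0.34, adjusted p = 3.28e-09). Mmp12, the macrophage elastase, went from 0.21, 0.515, 0.43 and 0.247 CPM to 222, 228, 169, 207 and 170.5 CPM (9.09 ± 0.23), and Vehicle was at 241 to 373 CPM, above every SR9009 library though not called against it (adjusted p = 0.108). Mmp7, matrilysin of ductular epithelium, had no count in 3 Chow libraries and 0 to 0.21 CPM over all 4, and was at 7.85, 34.4, 6.63, 26.6 and 13.3 CPM under SR9009. Plau, urokinase, was 3.16 ± 0.15 from Chow. Over the 28 tested genes of remodelling and crosslinking, 24 were higher and 1 lower (Mmp19, -0.79 ± 0.14, not called under total counts), with a median of 2.94 (Vehicle 24 and 3, 2.7).

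Activated stellate cell markers had the same direction. Acta2, smooth muscle actin of myofibroblasts, was at 1.16, 1.95, 1.32 and 1.9 CPM in Chow and 5.13, 11.3, 10.8, 9.75 and 10.5 CPM in SR9009 livers (2.58 ± 0.30, adjusted p = 3.03e-06; Vehicle 1.98). Vim was 2.97 ± 0.24 and Spp1, osteopontin, 3.82 ± 0.34 from Chow, the last at 3.19 in the libraries with few receptor genes. Spp1 is also in the lipid-associated macrophage and the ductular lists, so its rise cannot be assigned to stellate cells here. Of 18 activated stellate and myofibroblast genes, 17 were higher and none lower (median 2.76; Vehicle 17 and 0, 2.32). Of 16 genes of quiescent stellate cells, 11 were higher and 1, Colec10, lower (-1.35 ± 0.38), and Lrat, which esterifies retinol for storage, differed by 0.0016 ± 0.25 (interval -0.54 to 0.54). The stellate and myofibroblast markers Lrat, Reln, Pdgfrb, Acta2 and Col1a1 summed to 73.7 to 125 CPM in Chow and 275 to 498 CPM in SR9009 livers.

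**Figure D4:**
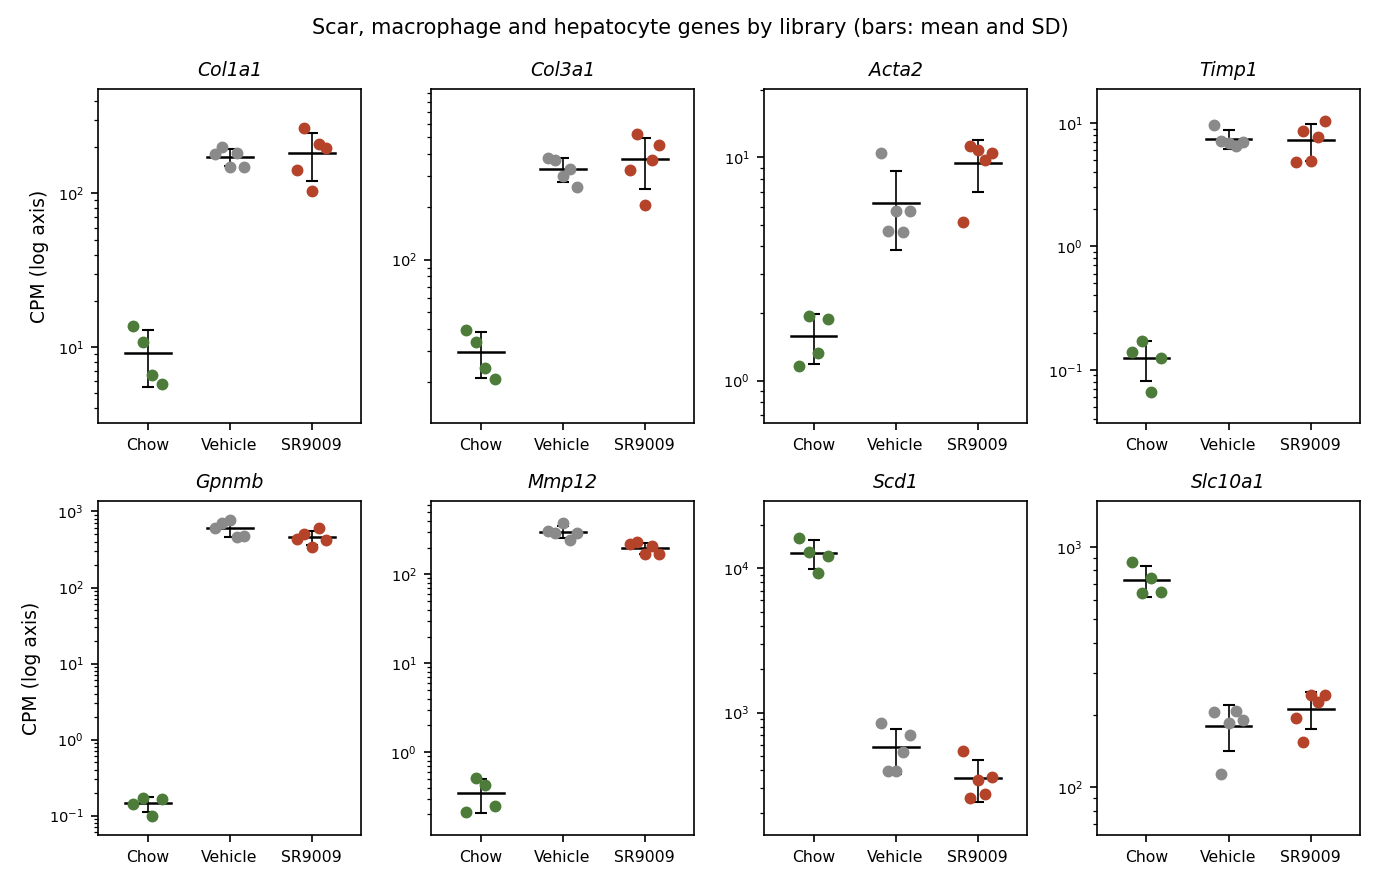
CPM on a log axis of 8 genes in Chow, Vehicle and SR9009 livers, with 1 point per library and bars for the mean and SD. Col1a1, Col3a1, Acta2, Timp1, Gpnmb and Mmp12 are higher, and Scd1 and Slc10a1 lower, in every SR9009 library than in any Chow library.

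Genes of recruited, lipid-laden macrophages were far above Chow, and those of resident Kupffer cells were called in shares near those of all genes. Gpnmb, a glycoprotein of lipid-associated macrophages, was at 0.14, 0.172, 0.0993 and 0.165 CPM in Chow and 435, 499, 346, 607 and 417 CPM in SR9009 livers, with Vehicle at 456 to 769 CPM. Its log2 difference of 11.61 ± 0.31 was the largest called rise of any gene in the comparison that had a mean of at least 5 CPM in the higher group. Capg (4.24 ± 0.14), Trem2 (6.05 ± 0.27) and the endotoxin co-receptor Cd14 (3.98 ± 0.20) rose, as did 24 of 25 tested members of the list, with a median of 3.82 (Vehicle also 24, median 3.95). Cd163, the haemoglobin scavenger receptor, was at 6.17, 10.4, 17.7 and 23.8 CPM in Chow and 1.02, 0.324, 0.624, 0.192 and 0.805 CPM in SR9009 livers (-4.61 ± 0.45), and Timd4 at 2.63, 4.55, 5.89 and 11.4 and 0.891, 0.423, 0.988, 0.533 and 0.497 CPM (-3.19 ± 0.52). Clec4f was at 55.5, 75.2, 87.3 and 170.5 and 117, 39.9, 136, 40.8 and 81.6 CPM, overlapping (-0.23 ± 0.40, adjusted p = 0.66), and C1qb, shared with recruited macrophages, was higher (2.42 ± 0.24). Over the 16 Kupffer genes, 6 were higher (37.5%) and 5 lower (31.2%), beside 30.5% and 25.7% of all genes, with a median of -0.20 (7 and 3 under total counts, median 0.24).

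Chemokines, antigen presentation and interferon-stimulated genes remained high as well. The chemokines Ccl22, with 0.0702, 0, 0 and 0.0412 CPM in Chow and 1.59, 3.39, 3.22, 4.91 and 2.72 CPM in SR9009 livers, and Cx3cl1 (4.04 ± 0.25) were among 20 of 25 cytokine genes that were higher, with none lower. The fitted difference of Ccl22, 6.79 ± 0.54, went to 7.79 without Chow replicate 1. Inflammasome and innate sensor genes were higher for 19 of 22, interferon-stimulated genes for 16 of 20, as for Oasl2 (2.66 ± 0.19), and MHC class II genes for 8 of 9, as for H2-Eb1 (2.53 ± 0.31), with none lower in these 3 lists. T, B and NK lymphocyte genes were higher for 15 of 22, among them Cd8a at 2.44, 3.09, 5.74, 2.26 and 1.37 CPM against 0.105, 0.0573, 0.166 and 0.124 CPM in Chow, and lower for 2, Cd4 (-0.98 ± 0.32) and Zap70 (-0.68 ± 0.23). Neither fall was called under total counts, nor that of Zap70 without Chow replicate 4 (adjusted p = 0.0565).

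Of 14 neutrophil genes, 5 were higher than Chow in SR9009 livers (35.7%, beside 30.5% of all genes, median 2.43) and 11 in Vehicle livers (median 3.42). The difference between the 2 counts was not tested, and no member was called between SR9009 and Vehicle. S100a8, a calcium-binding protein abundant in neutrophils, was at 2.12, 3.09, 2.05, 3.48 and 4.93 CPM in SR9009, 0.491, 0.487, 0.563 and 2.27 CPM in Chow and 7.03, 23.7, 2.24, 1.6 and 2.65 CPM in Vehicle livers. Ltf, lactoferrin, was at 0.0424, 0.722, 0.676, 1.24 and 0.403, 0.0702, 0, 0 and 0.289 and 2.46, 16.1, 0.352, 0.162 and 0.47 CPM in the same order. Vehicle replicate 2 was the highest library for both, and Chow replicate 4 the highest Chow library. S100a8 was not called from Chow (adjusted p = 0.0898), but was without Chow replicate 4 (0.0369) or Vehicle replicate 2 (0.0147). Csf3r, the G-CSF receptor, was called (1.88 ± 0.37), at 2.63 without Chow replicate 4. Without that library 8 of the 14 genes were higher than Chow, with a median of 4.05.

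The same Chow library stood apart for acute phase genes. Saa1, serum amyloid A, was at 23.9, 37.99, 49.4 and 1082 CPM in Chow and 268, 511, 849, 239 and 442 CPM in SR9009 livers, a difference of 0.63 ± 1.06 (adjusted p = 0.637) that became 3.64 (adjusted p = 0.0021) without Chow replicate 4. Lcn2, lipocalin 2, which binds bacterial siderophores, was at 1.97, 2.92, 2.38 and 82.2 and 682, 625, 692, 429 and 599 CPM (4.77 ± 1.13; 7.96 without it), and Orm2, an α1-acid glycoprotein, at 5.23, 8.99, 8.67 and 125 and 474, 558, 664, 306 and 403 CPM (3.71 ± 0.96; 5.98). Orm3 (2.25 ± 0.58; 3.18), Saa3 (3.55 ± 0.51) and the pentraxin Apcs (1.46 ± 0.19) were also higher, while Hamp, hepcidin, was lower (-1.55 ± 0.20). Of the 22 acute phase genes 5 were higher (22.7%) and 4 lower (18.2%) than Chow with all libraries, beside 30.5% and 25.7% of all genes. Vehicle had 4 higher and 6 lower. Without Chow replicate 4, 12 were higher under SR9009. Under total counts 12 were higher and 2 lower.

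Ductular and mesothelial genes were raised. Of 22 cholangiocyte and ductular genes, 20 were higher and 1 lower (Onecut1, -2.59 ± 0.77), with a median of 3.32 (Vehicle 21 and 1, 3.01). Krt19, a keratin of bile duct epithelium, was at 2.53, 3.12, 0.861 and 2.02 CPM in Chow and 13.5, 33.8, 13.7, 33.5 and 28.8 CPM in SR9009 livers (3.52 ± 0.42), the tight junction claudin Cldn7 was 4.13 ± 0.39 and the mucin Muc1 3.11 ± 0.23. All 12 mesothelial genes tested were higher than Chow, beside 5 in Vehicle, and none was called between SR9009 and Vehicle. Msln, mesothelin, was at 1.9, 4.95, 0.629 and 2.14 CPM in Chow, 15.8, 1.22, 5.59, 11.9 and 4.42 CPM in Vehicle and 7.76, 31.1, 8.94, 31.6 and 29.2 CPM in SR9009 livers, and Muc16 at 0.421, 1.4, 0 and 0.412, 4.17, 0.0706, 1.72, 1.78 and 0.598 and 2.8, 17.2, 3.92, 9.18 and 10.97 CPM. Msln was 3.15 ± 0.79 and Muc16 3.92 ± 0.99 from Chow, and without Chow replicate 2 they were 3.82 and 5.01. The SR9009 libraries with high values were replicates 2, 4 and 5, those with many receptor genes. The markers Msln, Upk3b and Wt1 summed to 63.6 to 69.2 CPM in them and to 15.8 and 15.9 CPM in SR9009 replicates 3 and 1, with 3.01 to 12.6 CPM in Chow. In the libraries with few receptor genes, 7 of the 12 were higher than Chow. There Upk3b, 2.12 ± 0.72 with all libraries, was 0.39 (adjusted p = 0.624), Msln 1.78 (adjusted p = 0.0846), Muc16 2.54, Krt19 2.66, Gpm6a 1.88 (all libraries 2.97) and the endothelial Cd34 2.61 (all libraries 3.41). Upk3b also lost its call without Chow replicate 1 or 3 or SR9009 replicate 2 (adjusted p 0.0678, 0.0655 and 0.0516). How much of the liver surface or of the ducts each piece held was not tested.

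Of 21 endothelial genes, 8 were higher and 4 lower (median 0.27), near the shares of all genes (30.5% and 25.7%), and under total counts 14 were higher and 1 lower (median 0.73). The higher ones included the scavenger receptor Stab1 (0.93 ± 0.096). Cell cycle genes were higher for 26 of 28 and lower for none (median 2.03; Vehicle 2.04), with Cdk1 at 7.95, 13.6, 7.07, 6.23 and 8.88 CPM against 0.877, 1.03, 0.96 and 1.24 CPM in Chow and the replication licensing factor Mcm6 at 2.07 ± 0.15. Hba-a1, α-globin of red cells, was at 32.8, 107, 35.7, 170.5 and 314 CPM in SR9009 and 114, 52.9, 58.4 and 71.4 CPM in Chow livers, a difference of 0.83 ± 0.71 with all libraries that was 0.22 without SR9009 replicate 5 and turned to -1.12 in the libraries with few receptor genes, SR9009 replicates 1 and 3 holding the lowest treated values. Alas2, the first enzyme of erythroid haem synthesis, was lower than Chow (-1.43 ± 0.15).

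Lipogenic genes stayed far below Chow. Scd1, stearoyl-CoA desaturase, was at 16390.0, 13060.0, 9375 and 12190.0 CPM in Chow, 395 to 851 CPM in Vehicle and 541, 254, 343, 272 and 360.1 CPM in SR9009 livers, 36.03-fold lower than Chow (log2 -5.17 ± 0.30, adjusted p = 4.57e-09). Fasn, fatty acid synthase, was at 592, 205, 298, 236 and 251 CPM against 1316, 1489, 1328 and 864 CPM (-1.98 ± 0.36), and Me1, malic enzyme, which supplies NADPH, was -2.31 ± 0.19. Of 28 fatty acid synthesis genes, 22 were lower and 3 higher (median -1.20; Vehicle 20 and 3, -1.26). The 3 higher ones were Scd2 (2.24 ± 0.19), the desaturase of other tissues, G6pdx (1.62 ± 0.16) and Elovl1 (0.47 ± 0.08). Fatty acid oxidation and lipid droplet genes were lower for 17 of 29 (58.6%) and 10 of 16 (62.5%), beside 25.7% of all genes. Their medians of -0.33 and -0.42 turned to 0.12 and 0.023 under total counts. Fabp1, the liver fatty acid binding protein, was -1.45 ± 0.14 from Chow.

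Cholesterol synthesis genes were lower than Chow for 39.1% of members and higher for 8.7%, beside 25.7% and 30.5% of all genes. Of 23 genes, 9 were lower and 2 higher than Chow under SR9009 (median -0.27; 4 lower, 8 higher and 0.18 under total counts), beside 16 and 1 in Vehicle (median -0.79), but no member was called between SR9009 and Vehicle, and the difference between the counts was not tested. Fdft1 and Msmo1, enzymes of the sterol branch, were called lower in Vehicle and were 0.078 ± 0.16 and 0.062 ± 0.21 from Chow under SR9009 (intervals -0.27 to 0.42 and -0.38 to 0.50). Insig1, which retains SREBP in the endoplasmic reticulum, remained lower at 356, 248, 364, 282 and 278 CPM against 1058, 694, 1154 and 585 CPM (-1.51 ± 0.24), and Sc5d at -0.86 ± 0.13.

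Bile acid and choline-linked genes remained below Chow. Slc10a1 (NTCP), the bile acid importer, was at 867, 646, 744 and 650.4 CPM in Chow and 194, 155, 242, 226 and 242 CPM in SR9009 livers (-1.78 ± 0.17), and Abcb11 (BSEP), the canalicular exporter, was -1.47 ± 0.11. Of 25 bile acid genes, 18 were lower and 3 higher (median -0.75; Vehicle 19 and 2, -1.02). Cyp7a1, the rate-limiting enzyme of bile acid synthesis, was at 178, 58.6, 152, 73.5 and 152 CPM against 60.8, 54.8, 97.7 and 51.8 CPM in Chow, overlapping only through SR9009 replicates 2 and 4 (0.89 ± 0.32, adjusted p = 0.0294). That call was lost without Chow replicate 1, 2 or 4 or SR9009 replicate 1, 3 or 5, at adjusted p of 0.0717, 0.0796, 0.0837, 0.0716, 0.0621 and 0.0613. Of 25 phosphatidylcholine and methyl metabolism genes, 20 were lower and 1, Mat2a, higher (1.27 ± 0.17), with a median of -0.89 (Vehicle -0.67). Gnmt, glycine N-methyltransferase, was at 446, 495, 724, 532 and 724 CPM against 2736, 2087, 1887 and 1851 CPM (-1.87 ± 0.16), and Cbs, the entry to transsulfuration, -1.25 ± 0.11.

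Urea cycle genes were lower than Chow, and glucose and mitochondrial genes were lower in part, depending on the scaling. Cps1, the first enzyme of the urea cycle, was at 6426, 5307, 7132 and 4465 CPM in Chow and 1457, 1306, 1823, 1435 and 1974 CPM in SR9009 livers (-1.87 ± 0.17), Asl was -1.43 ± 0.13, and 13 of 14 urea cycle and periportal genes were lower (median -1.32; Vehicle 13, -1.11), with Aldh1b1 higher (0.78 ± 0.26). G6pc, glucose-6-phosphatase, which releases glucose from the hepatocyte, was at 589, 644, 1215 and 482 CPM in Chow, 111, 160.2, 237, 466 and 131 CPM in Vehicle and 69.97, 96.1, 64.1, 78.3 and 49.02 CPM in SR9009 livers. Every SR9009 library was below every Vehicle library, which in turn were below every Chow library. G6pc was 10.2-fold lower than Chow (log2 -3.36 ± 0.42, adjusted p = 1.6e-05), but did not pass the test against Vehicle (adjusted p = 0.163). Pck1, the cytosolic enzyme that starts gluconeogenesis, was at 700.5, 1014, 952, 1062 and 898 CPM under SR9009 and 987, 2105, 2164 and 1605 CPM in Chow (-0.89 ± 0.22, adjusted p = 0.00318) and was not called in Vehicle (-0.1). It was not called under total counts (-0.45). Pygl, liver glycogen phosphorylase, was -1.5 ± 0.15. Of 23 glucose genes, 12 were lower (52.2%) and 5 higher (21.7%), beside 25.7% and 30.5% of all genes. The 5 were Hk1, Hk2, Hk3, Pkm and Pfkfb3, of which the first 4 encode isoforms that hepatocytes express little. Under total counts 6 glucose genes were lower and 9 higher (median -0.034). All 30 oxidative phosphorylation genes tested were lower, as for Uqcrc2 (-0.74 ± 0.096), with a median of -0.58, and under total counts 10 were lower and 1 higher (median -0.13). Genes of the mitochondrial genome took 3.49 to 4.37% of counts in SR9009 and 5.16 to 6.22% in Chow livers.

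Secreted proteins and the factors that maintain hepatocyte identity were lower. Of 29 secreted hepatocyte proteins, 27 were lower (17 under total counts) and 1, the haem-binding haemopexin (Hpx), higher (0.77 ± 0.29), a call lost without Chow replicate 1, 2 or 3 or SR9009 replicate 2, 3 or 5 (adjusted p 0.105, 0.108, 0.106, 0.0541, 0.0618 and 0.0734). Serpinc1, antithrombin, was -0.86 ± 0.10 and Igf1 -1.10 ± 0.14 from Chow. Of 23 hepatocyte transcription factors, 17 were lower and 2 higher (Ahr, 0.91 ± 0.16, and Gata6, 1.15 ± 0.20), and under total counts 6 were lower and 3 higher. Stat5b, which relays growth hormone, was at 53.9, 60.9, 58.2, 60.5 and 55.2 CPM against 105, 105, 89.1 and 107 CPM in Chow (-0.81 ± 0.075). Of 18 genes of the pericentral list, which also holds the periportal Cyp2f2, 8 were higher and 3 lower (12 and 3 under total counts). The 8 and 3 are 44.4% and 16.7%, beside 30.5% and 25.7% of all genes. The higher ones included Cyp2c29 and Cyp1a2, which SR9009 raised against Vehicle.

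Genes that are normally higher in male than in female liver had the largest median change of the 40 lists, and under total counts (median -3.67) the lipid-associated macrophage list (4.29) was larger. All 25 male-biased genes tested were lower than Chow (median -4.10; Vehicle 25, -4.13), and 10 of 13 female-biased genes were higher (median 2.41; Vehicle 11, 2.44). Hsd3b5, a male-specific steroid dehydrogenase, was at 514, 292, 615 and 330.3 CPM in Chow and 0.0212, 0.0498, 0.598, 0.171 and 0.166 CPM in SR9009 livers, and Mup7, a major urinary protein, at 2915, 2517, 3894 and 2419 and 0.573, 0.598, 13.8, 0.576 and 1.26 CPM. Neither overlapped, and their differences of -11.13 ± 1.01 and -9.79 ± 1.5 went to -12.02 and -11.93 without SR9009 replicate 3, the highest treated library for both. Mup15 was -8.12 ± 0.83, and -7.47 without Chow replicate 3 or -8.76 without SR9009 replicate 3. Cyp2u1 was -3.59 ± 0.22 and Ugt2b38, a glucuronosyltransferase, -7.60 ± 0.80. The female-biased Cyp2b9 was at 0.351, 1.83, 0.0662 and 0.742 CPM in Chow and 89.9, 31.6, 44.9, 30.2 and 57.05 CPM in SR9009 livers (6.02 ± 0.79; 7.11 without Chow replicate 2), and Cyp2a4 at 0.14, 0.115, 0.0993 and 0.124 and 40.5, 10.4, 13.8, 11.5 and 13.8 CPM. Both were high in Vehicle livers too, unlike Cyp2b10. Major urinary proteins and the 2a and 2b P450s are families of near-identical copies.

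Stress genes were split by pathway. Slc7a11, the cystine importer, had no count in 3 Chow libraries and 0, 0, 0 and 0.0824 CPM over the 4, and was at 4.69, 7.42, 3.27, 5.44 and 3.79 CPM in SR9009 livers. Srxn1, sulfiredoxin, a target of NRF2, was 1.89 ± 0.11. Of 25 oxidative stress genes, 13 were higher (52%) and 5 lower (20%), beside 30.5% and 25.7% of all genes. Under total counts 20 were higher and 1 lower. In the list for stress of the endoplasmic reticulum, 8 of 23 were higher (34.8%) and 9 lower (39.1%), beside 30.5% and 25.7% of all genes. The median was -0.15, and 0.29 under total counts. The higher ones included the enzymes of serine and asparagine synthesis Psat1 (4.85 ± 0.30) and Asns (2.90 ± 0.33), together with the ATF4 target Trib3 (2.59 ± 0.35), while chaperones such as Hspa5 (-1.27 ± 0.23) were lower. Cdkn1a, the p21 inhibitor of cyclin-dependent kinases, was 2.00 ± 0.21. Of 18 p53 and senescence genes, 10 were higher (55.6%) and 2 lower (11.1%), and under total counts 13 and 0. Lysosomal genes were higher for 15 of 26 (57.7%) and lower for 3 (11.5%), and under total counts for 22 and 0. Cathepsin D (Ctsd) was 1.78 ± 0.13, and 11 of 13 fetal and tumour-associated genes were higher.

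**Figure D5:**
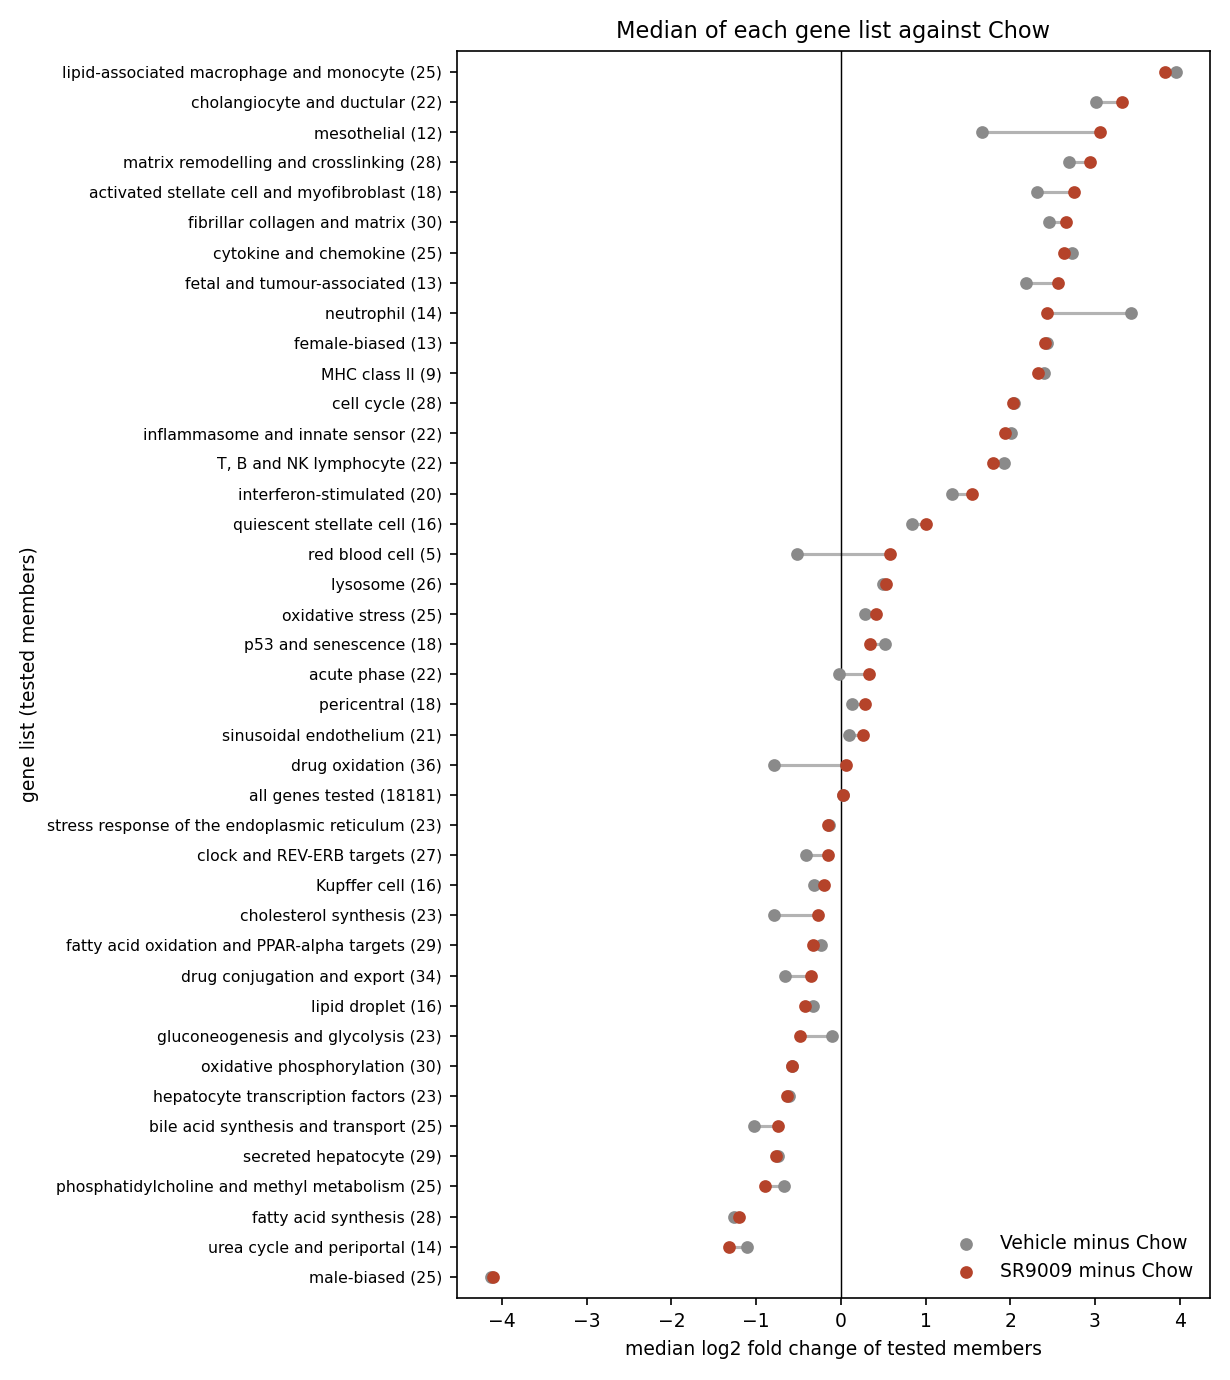
Median log2 fold change from Chow over each gene list in Vehicle and in SR9009 livers, from 1 edgeR fit in which both share the 4 Chow libraries. Macrophage, matrix and ductular lists lie to the right of 0 in both groups, male-biased, urea cycle and fatty acid synthesis lists to the left, and drug oxidation lies left of 0 in Vehicle and at 0.06 in SR9009; the medians of Kupffer cell, cholesterol synthesis, fatty acid oxidation, lipid droplet, drug conjugation, endoplasmic reticulum and clock lists turn positive under total counts.

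Beyond the lists, and for Moxd1, which is also counted in the male-biased list, the largest changes from Chow were near absence in 1 of the 2 groups. Trhde, a peptidase that inactivates thyrotropin-releasing hormone, was at 10.1, 9.05, 9.73 and 6.72 CPM in Chow and had no count in 4 of 5 SR9009 libraries (0 to 0.0237 CPM). Moxd1, a monooxygenase homologue, was at 16.8, 6.87, 241 and 17.6 and 0.0424, 0.0498, 0, 0.0853 and 0.0948 CPM, Pitx3, a homeobox factor, at 8.7, 12.4, 6.26 and 4.41 and 0.0212, 0, 0, 0.107 and 0.0237 CPM, and the pseudogene Serpina4-ps1 at 246, 112, 1179 and 465 and 0.636, 0.423, 2.52, 1.71 and 1.78 CPM. Fitted differences this far out moved with single libraries: Trhde -10.16 ± 0.55 became -11.48 without SR9009 replicate 5, Moxd1 -10.23 ± 1.37 became -7.87 and Serpina4-ps1 -8.48 ± 1.17 became -7.61 without Chow replicate 3, and Pitx3 -7.81 ± 0.52 became -9.05 without SR9009 replicate 4. Among the rises, Vmn2r3, a vomeronasal receptor gene, had no count in 3 Chow libraries and was at 6.32, 19.3, 10.8, 16.3 and 5.45 CPM in SR9009 livers. Ubd, a ubiquitin-like modifier induced by cytokines, was at 0.316, 0.372, 0.0331 and 0.577 CPM in Chow and 51.01, 70.1, 55.7, 47.95 and 50.9 CPM in SR9009 livers (7.44 ± 0.31, adjusted p = 3.69e-10), with no overlap. Each of these genes was called in Vehicle in the same direction, and none between SR9009 and Vehicle.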

How the data were processed

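Liver RNA of 4 Chow, 5 Vehicle and 5 SR9009 mice was sequenced. The authors deposited a table of raw read counts per gene, per the file headers. STAR 2.7.11b and the build GRCm39 are named in the submitters' processing notes, and the sources used here do not give the counting tool, annotation or strand setting. Symbols came from GENCODE M21 names and matched 51880 of 57132 identifiers (90.8%), which hold 99.59% of counts. Groups follow the sample titles. In each group the replicates differed by more than sampling noise.

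Genes passing filterByExpr (minimum count 10, minimum total 15), 18181 with 99.94% of counts, were fitted in edgeR 4.0.16 (R 4.3.3, limma 3.58.1) with TMM factors and robust quasi-likelihood over all 3 groups, and called at a Benjamini-Hochberg adjusted p under 0.05 over all genes tested. Standard errors were taken from the quasi-likelihood F statistic, and intervals are 95%. The fit was also run on simulated counts, in which a small share of well-counted genes was changed by a large amount. Most genes differed from Chow in the data, so that run could test neither the scaling nor the classes that rest on small differences. TMM factors were 0.753 to 0.824 in Chow and 1.02 to 1.14 in SR9009 libraries. A gene past the Chow level is called in Vehicle against Chow, in SR9009 against Vehicle with the opposite sign, and in SR9009 against Chow with the opposite sign to Vehicle. A returned gene lacks the last call.

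Named genes were the clock and marker genes of the study's question, every gene of the small classes, the 8 largest rises and falls with a mean of at least 5 CPM, and list members that decide a list's description. The comparison, the gene lists and these members were chosen with earlier results of these data known. Some genes the rule names are not reported here. Lists were described by counts and medians with no test.

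Alternatives were DESeq2 1.42.0, its size factors in edgeR, total counts, no filter, an adjusted p under 0.01, the 2 groups of each contrast alone, the replicate number as a block, a term for libraries with many receptor genes, and each library left out in turn. A fit on the libraries with few receptor genes alone was chosen after seeing the data. Python 3.11.15, pandas 2.3.3 and matplotlib 3.10.9 served for tables and figures. Promoter windows are RefSeq's on GRCm38.p6.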

Additional observations from a re-analysis of the deposited data

Results flagged for a closer look

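For each of the 170 genes named, the Chow and the SR9009 libraries were searched for 1 library whose gap to the nearest other exceeded Dixon's 95% critical value, on log2 CPM with 0.1 added. It was exceeded in 25 of 340 groups of libraries (7.35%), where chance gives about 1 in 20. Chow replicate 4 stood apart for Slc7a11 (0.0824 CPM, all others 0), S100a8 (2.27 CPM, others 0.487 to 0.563), Orm2 (125 CPM, others 5.23 to 8.99), Lcn2 (82.2 CPM, others 1.97 to 2.92) and Hpx (9781 CPM, others 3070.0 to 3581). These are genes of the acute phase and of neutrophils, together with Slc7a11. Chow replicate 1 stood apart for Per3 (6.6 CPM, others 14.3 to 15.4), Mmp7 (0.21 CPM, all others 0), Serpinc1 (3057 CPM, others 2436 to 2527), Vmn2r3 (0.0702 CPM, all others 0), Cyp2c54 (435 CPM, others 292 to 309) and Per1 (3.3 CPM, others 9.19 to 10.8). Chow replicate 2 stood apart for Cry2 (52.5 CPM, others 37 to 38.9). Chow replicate 3 stood apart for Cyp2c37 (326 CPM, others 362 to 369.6), Cyp3a59 (37.9 CPM, others 60.5 to 61.3), Gsta1 (0.629 CPM, others 1.36 to 1.55) and Stat5b (89.1 CPM, others 105 to 107). SR9009 replicate 1 stood apart for Dhrs7 (40.5 CPM, others 44.2 to 45.1), Acta2 (5.13 CPM, others 9.75 to 11.3), Cyp2a4 (40.5 CPM, others 10.4 to 13.8) and Asns (24.5 CPM, others 42.4 to 52.6). SR9009 replicate 2 stood apart for H2-Eb1 (249.9 CPM, others 102 to 118). SR9009 replicate 3 stood apart for Hykk (67.5 CPM, others 53 to 56.7), Mcm6 (17.4 CPM, others 22.3 to 24.6) and Mup7 (13.8 CPM, others 0.573 to 1.26). SR9009 replicate 5 stood apart for Trhde (0.0237 CPM, all others 0). In Chow replicate 3 the values are the lowest of the group for every gene listed, and in Chow replicate 1 they are the lowest for the clock genes Per1 and Per3.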

How the results depend on the processing

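Of the differences from Chow of the 170 named genes, 3623 of 3738 gene and setting pairs kept direction and side of the threshold, 81 lost the call, 30 gained it and 4 turned sign, and 126 genes had no change. With 1 library left out, called genes numbered 9450 to 10287 (5169 to 5568 higher, 4227 to 4719 lower), genes remaining changed 8321 to 8927, partly back 2 to 6, further 3 to 18, returned 2 to 9, past Chow 4 to 9 and called only with SR9009 5 to 15. These fits held 90.0 to 98.9% of the calls against Chow. The small classes rest on the 44 calls against Vehicle, which were 212 in DESeq2. There 34 genes were partly back, 63 further, 40 returned and 56 called only with SR9009. A term for receptor gene class gave 8, 15, 17 and 32, with 4 past Chow. The libraries with few receptor genes alone, a choice made after seeing the data, gave 1, 0, 1 and 1, with 3 past Chow, and 6 calls against Vehicle. The 2 groups of each contrast alone gave 4 past Chow, and defining return as a 2-fold change in Vehicle and a 95% interval within 1.5-fold of Chow gave 1 gene. Total counts gave 9964 higher and 1577 lower calls and 2 genes partly back, and turned 4931406C07Rik to 0.33 (adjusted p = 0.00973), Arsg to 0.14 (adjusted p = 0.172) and the medians of the Kupffer cell (0.24), cholesterol synthesis (0.18), fatty acid oxidation (0.12), lipid droplet (0.023), drug conjugation (0.098), endoplasmic reticulum (0.29) and clock (0.29) lists. Hba-a1 turned to -1.01 with the receptor class term and -1.12 in the libraries with few receptor genes. The replicate block gave 2 genes partly back, 3 further, 3 returned, 4 past Chow and 3 called only with SR9009. Same-numbered libraries of different groups correlated at -0.362 to 0.196 in their deviations (13 pairs), and unlike-numbered ones at -0.433 to 0.474 (52 pairs). Such correlations cannot decide whether equal numbers mark paired mice. The causes of these changes were not tested. With 4 and 5 mice a group, an uncalled difference between SR9009 and Vehicle does not show that the groups are alike.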
